A study of Mus musculus with 12 samples.

Results

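Embryoid bodies (EBs), the aggregates in which mouse embryonic stem (ES) cells differentiate, were compared between double knockout cells (DKO), labelled as without SUV420H1 and SUV420H2, and single knockout cells (KO), without SUV420H2 alone. The comparison rested on 4 of the 12 polyadenylated RNA libraries of the series, chosen by their labels: DKO and KO cells at day 8 and at day 12 of differentiation, 1 library per genotype and day, which the labels call differentiated. KO cells carry the SUV420H2 loss that DKO cells also carry, so the labels set the 2 groups apart by SUV420H1. EBs of WT cells at the same days (2 libraries) and undifferentiated ES cells of DKO, KO and WT (2 libraries each) served as context. The ES cells had been moved off their feeder cells onto gelatin with a GSK3 inhibitor (1.5 µM), an agent that keeps beta-catenin stable. The labels do not say how many clones stand behind a genotype or whether libraries came from separate cultures, so the 2 days stood in for replicates, and p-values measure the spread between these libraries.

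SUV420H1 and SUV420H2 dimethylate and trimethylate lysine 20 of histone H4. The monomethyl mark they build on is placed by SETD8, and trimethylated H4K20 is a mark of constitutive heterochromatin. In EBs, pluripotent cells pass through states like the epiblast and the primitive streak and then give rise to yolk sac endoderm, heart, vessels, blood, mesenchyme and neural cells, so transcripts of these cell types report how far and into what a culture has differentiated.

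The libraries held 23421465 and 24925199 reads in genes in DKO EBs and 22538336 and 25922191 in KO EBs. Levels are given as CPM, reads scaled to a common library size, in the order day 8 and day 12, and a log2 ratio is DKO over KO on the same day. Suv420h2 was at 38.2 and 25.3 CPM in DKO EBs, at 26.9 and 40.4 CPM in KO EBs and at 128 and 126 CPM in WT EBs, so both mutant genotypes lay below WT and DKO and KO overlapped. Suv420h1 stood at 61.7 and 86.1 CPM in DKO EBs, 50.7 and 51.8 CPM in KO EBs and 56.1 and 54.8 CPM in WT EBs. Of 3 shorter Suv420h1 transcript models, which share reads, 1 held 358 and 440 reads in DKO and 708 and 620 reads in KO EBs. Another held 305 and 414 reads in DKO and 536 and 408 reads in KO EBs, and the remaining model 305 and 414 reads in DKO and 536 and 414 reads in KO EBs, so these were near equal on day 12. A deletion of part of a gene can leave the rest of its transcript in the count, so these values do not check the SUV420H1 knockout. Setd8 was at 149 and 124 CPM in DKO and 125 and 94.7 CPM in KO EBs. Of 11 tested H4K20 methylation genes, none was at least 2-fold higher or lower in DKO on both days.

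The labels call the EB cultures of all 3 genotypes differentiated, and their marker levels differed. These levels are not set against ES cells in this paragraph. Pou5f1, which encodes the pluripotency factor OCT4, was at 1830.1 and 967 CPM in DKO EBs, 1079.8 and 419 CPM in KO EBs and 116 and 58.0 CPM in WT EBs, and it was lower on day 12 than on day 8 in each genotype. On the first principal component of the 6 EB libraries, which held 58.9% of the variance, DKO stood at 95.6 (day 8) and 43.5 (day 12), KO at 44.3 and -32.6, and WT at -76.6 and -74.2. The day 12 DKO library thus lay beside the day 8 KO library on this axis alone. On the second component, with 20.8% of the variance, these libraries stood at opposite ends. There the day 8 KO library was the highest of the 6 and the day 12 DKO library the lowest, at -49.87. The day 12 WT library lay near the latter, at -43.03. In bulk RNA, fewer cells of a type and less RNA per cell cannot be told apart, which holds for every cell type marker below.

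Across all genes, DKO and KO EBs differed widely in size of ratio, while the test, with 2 residual degrees of freedom, passed a single gene. Pnma5, an X-linked gene of the paraneoplastic antigen family, was at 1.16 and 0.482 CPM in DKO, 165 and 69.6 CPM in KO EBs and 2.77 and 1.17 CPM in WT EBs. It fell by 7.15 on the log2 scale in DKO against KO (SE 0.27, edgeR quasi-likelihood adjusted p = 0.049), at 143-fold less on day 8 and 144-fold less on day 12. WT lay above DKO but far closer to it than to KO. Pnma5 was 1 of 12896 genes tested (0.00775%), the next smallest adjusted p was 0.158, and 2161 genes had an unadjusted p under 0.05. The count of genes with an adjusted p under 0.05 was 251 and 237 without the day 8 or the day 12 WT library, 276 with the 4 DKO and KO libraries alone, and 0 without any 1 of the KO or DKO libraries.

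Day-matched ratios gave a broader description. Of the 12896 genes, 437 (3.39%) were at least 2-fold higher in DKO on both days and 923 (7.16%) at least 2-fold lower on both days. The ratio had the same sign on both days in 69.6% of genes, and across genes, which are not independent and share the same 2 cell lines, the day 8 and day 12 ratios had a Pearson correlation of 0.63. On day 8 alone 7.78% of genes were at least 2-fold higher and 11.8% lower, and on day 12 alone 8.39% and 14%. In 134 genes the ratio was at least 2-fold on each day but in opposite directions. A fit over all 12 libraries, where the pairs of ES libraries, possibly technical, supply much of the spread, called 994 of its 13429 genes higher (7.4%) and 1233 lower (9.18%), which included 962 (7.46%) and 1180 (9.15%) of the 12896. Below, "called" refers to that fit (adjusted p under 0.05, edgeR) and none of those genes but Pnma5 passed in the EB libraries alone. Genes with under 1 RPKM (reads per kilobase and sequencing depth) in 5 of the 6 EB libraries were not tested, so a gene near 0 in DKO passed only through the other genotypes. For the main cell type lists, the summed RPKM of all members, tested or not, is therefore given too.

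**Figure D1:**
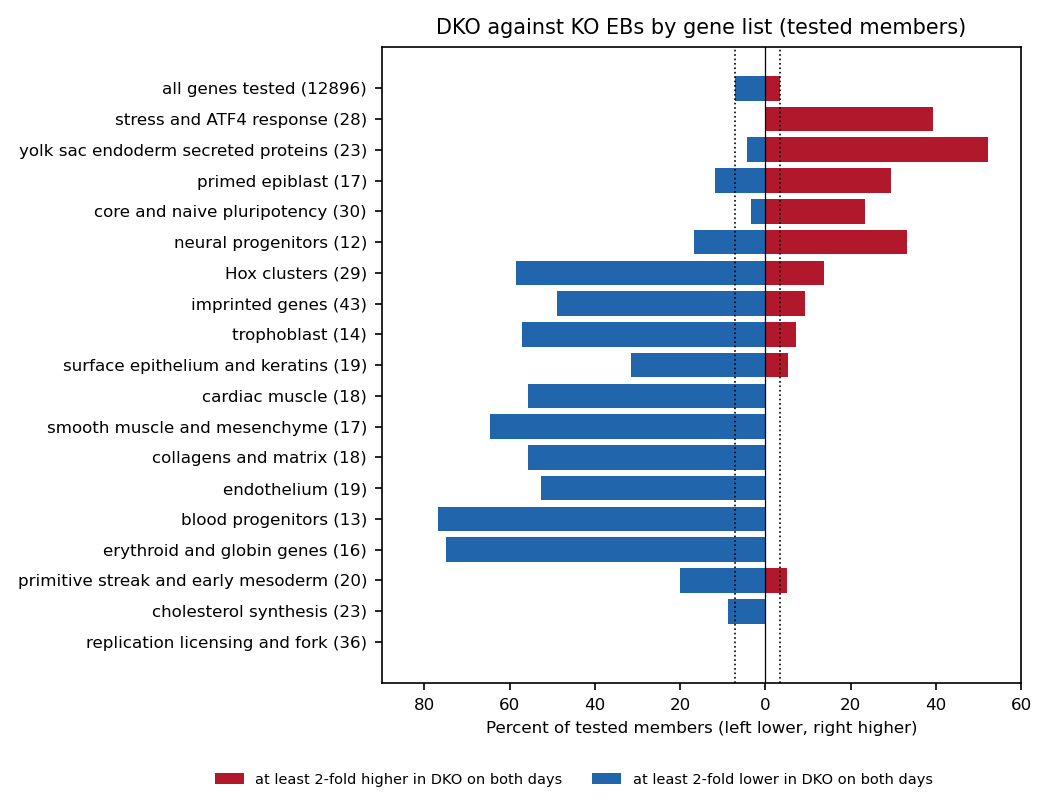
Share of the tested members of each gene list (number in brackets) that were at least 2-fold higher (right) or lower (left) in DKO than in KO EBs on both days. Dotted lines mark the shares over all genes tested, 3.39% higher and 7.16% lower. Lists of muscle, matrix, vessel and blood genes extend to the left and stress and yolk sac lists to the right.

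Genes of heart, mesenchyme and connective tissue were low in DKO EBs. Hand1, a transcription factor of heart, lateral mesoderm and trophoblast, was at 1.87 and 8.20 CPM in DKO, 292 and 461 CPM in KO EBs and 838 and 376 CPM in WT EBs. Both DKO libraries lay below all others, 156-fold below KO on day 8 and 56.2-fold on day 12 (called, log2 -6.31, SE 0.69, adjusted p = 0.0023). Hand2, its partner in the heart, was at 0.623 and 1.29 CPM in DKO, 51.7 and 319.6 CPM in KO EBs and 718 and 247 CPM in WT EBs, again without overlap. Of 18 tested cardiac muscle genes, 10 (55.6%) were at least 2-fold lower on both days, none was higher, and 9 were called lower. Isl1, of cardiac progenitors, was at 0.489 and 0.603 CPM in DKO and 9.07 and 25.7 CPM in KO EBs. The contractile genes were already low in day 8 KO EBs: Actc1, cardiac actin, was at 0 and 0.482 CPM in DKO and 1.41 and 39.8 CPM in KO EBs, and Myh6, a cardiac myosin, at 2.58 and 1.21 CPM in DKO and 5.69 and 18.1 CPM in KO EBs. Summed over the 29 cardiac genes, levels were 10.8 and 10.3 RPKM in DKO, 29.5 and 164 RPKM in KO EBs and 279 and 144 RPKM in WT EBs.

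Fibrillar collagens were lower in DKO than in KO EBs and highest in WT EBs. Col1a1, the main collagen of connective tissue, was at 0.845 and 1.29 CPM in DKO, 35.0 and 260.3 CPM in KO EBs and 1353 and 962 CPM in WT EBs (called, log2 -6.86, SE 0.85, adjusted p = 0.0032). Col3a1 was at 0.222 and 0.804 CPM in DKO, 2.27 and 376 CPM in KO EBs and 1261 and 812 CPM in WT EBs, so that day 8 KO EBs held little of it as well. Of 18 tested collagen and matrix genes, 10 (55.6%) were at least 2-fold lower on both days and none higher, and on day 12 alone 17 were lower, when 14% of all genes were. The summed level of this list was 116 and 67.6 RPKM in DKO, 112 and 329.7 RPKM in KO EBs and 891 and 569.7 RPKM in WT EBs, so on day 8 DKO and KO sums lay close together. Among 17 tested smooth muscle and mesenchyme genes, 11 (64.7%) were lower on both days and none higher. Acta2, smooth muscle actin, stood at 0.0890 and 0.402 CPM in DKO and 5.82 and 190.0 CPM in KO EBs. The summed level of the 22 smooth muscle and mesenchyme genes was 53.2 and 145 RPKM in DKO, 170.3 and 633 RPKM in KO EBs and 1122 and 723 RPKM in WT EBs. Twist2 and Snai2, transcription factors of mesenchyme, were at 1.29 and 1.41 CPM and 0.667 and 1.17 CPM in DKO EBs, against 17.0 and 45.2 CPM and 7.88 and 28.8 CPM in KO EBs. Tcf21, of epicardial and kidney mesenchyme, had no reads in either DKO library and was at 1.54 and 41.4 CPM in KO EBs, which puts DKO at least 11.5-fold (day 8) and 343-fold (day 12) lower at a floor of 3 counts per library.

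Vessel and blood genes were also low in DKO EBs, and here the KO values lay mostly below those of day 8 WT EBs. Cdh5, the cadherin of endothelial junctions, was at 0.356 and 3.13 CPM in DKO, 24.4 and 81.2 CPM in KO EBs and 294 and 42.2 CPM in WT EBs. Of 19 tested endothelial genes, 10 (52.6%) were at least 2-fold lower on both days and none higher, and their summed level was 43.4 and 33.5 RPKM in DKO, 89.9 and 163 RPKM in KO EBs and 446 and 71.3 RPKM in WT EBs. Kdr, the VEGF receptor that marks mesoderm with vessel and blood potential, was at 1.56 and 25.6 CPM in DKO and 56.9 and 142 CPM in KO EBs, with the day 12 DKO value above the day 8 one. Of 13 tested blood progenitor genes, 10 (76.9%) were lower on both days, and Itga2b, an integrin of early blood and megakaryocytes, was at 0.623 and 0.482 CPM in DKO, 13.6 and 44.2 CPM in KO EBs and 194 and 34.6 CPM in WT EBs. The embryonic globin genes Hbb-bh1 and Hba-x had no reads in either DKO library. Hbb-bh1 was at 45.8 and 103 CPM in KO EBs and 1367 and 8.76 CPM in WT EBs, and DKO lay at least 343-fold and 858-fold below KO. Hba-x was at 23.2 and 143 CPM in KO EBs and 2072 and 30.0 CPM in WT EBs, and DKO lay at least 174-fold and 1187-fold below KO. Hbb-y, also an embryonic globin, had no reads in DKO EBs and stood at 4.84 and 44.2 CPM in KO EBs. Of 16 tested erythroid genes, 12 (75%) were lower on both days and none higher, and Gata1, the erythroid master regulator, was at 0.623 and 0.482 CPM in DKO and 7.96 and 8.22 CPM in KO EBs. The erythroid sum was 36.7 and 23.3 RPKM in DKO, 148 and 589.7 RPKM in KO EBs and 5536 and 191 RPKM in WT EBs. Reads of near-identical globin copies may be split by the counting, which the sources used here do not describe.

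Macrophage genes differed with the day. Csf1r, the macrophage growth factor receptor, was at 0.756 and 0.884 CPM in DKO, 0.171 and 12.1 CPM in KO EBs and 6.38 and 25.7 CPM in WT EBs, so that it was near the floor in both DKO libraries and in day 8 KO EBs. Cx3cr1, a chemokine receptor of macrophages, had no reads in DKO EBs or in day 8 KO EBs and stood at 13.4 CPM in day 12 KO EBs. Of 13 tested members, 12 were at least 2-fold lower in DKO on day 12 and none on day 8, where 9 ratios, mostly of genes with few reads, were at least 2-fold higher. Over all genes, 14% were lower on day 12, and 11.8% lower and 7.78% higher on day 8. The list's summed level was 33.4 and 21.0 RPKM in DKO, 18.2 and 65.1 RPKM in KO EBs and 59.3 and 124 RPKM in WT EBs. Laptm5, a lysosomal membrane protein of blood cells, made up most of the day 8 DKO sum, at 99.2 and 56.9 CPM in DKO against 26.2 and 31.3 CPM in KO EBs.

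**Figure D2:**
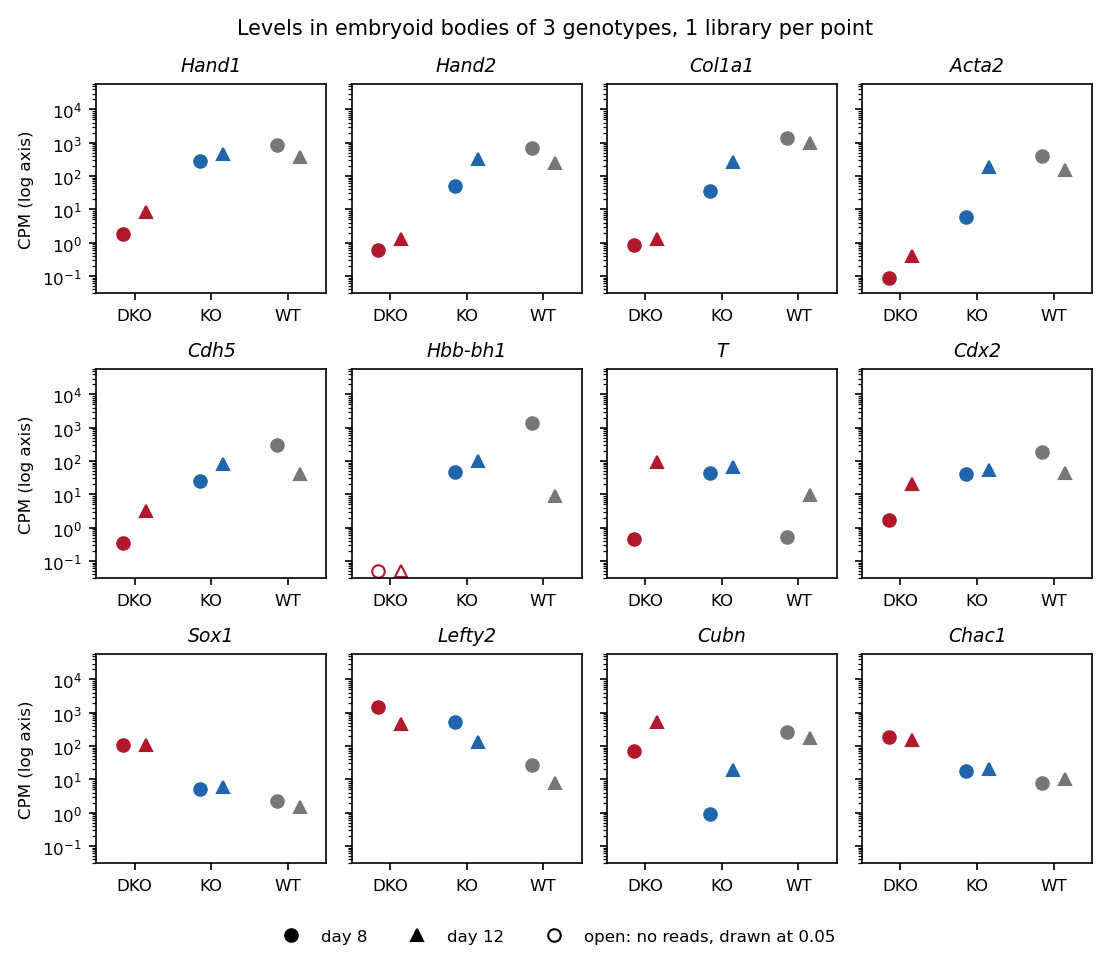
CPM on a log axis in each EB library of DKO, KO and WT, with circles for day 8 and triangles for day 12; 1 point is 1 library. Hand1, Hand2, Col1a1, Acta2, Cdh5 and Hbb-bh1 lie lowest in DKO, Sox1 and Chac1 highest in DKO, and Lefty2 higher in DKO than in KO on each day. On day 8 T is low in both DKO and WT and higher in KO.

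Genes of the primitive streak, the embryonic structure from which mesoderm and definitive endoderm arise, were mostly lower in DKO than in KO EBs on day 8. On day 12 DKO lay above KO for some and below it for others. T, which encodes Brachyury, was at 0.445 and 91.1 CPM in DKO, 42.4 and 68.4 CPM in KO EBs and 0.538 and 9.28 CPM in WT EBs, 95.2-fold below KO on day 8 and 1.33-fold above it on day 12. On day 8 the DKO level of T thus lay near that of WT, and KO was the genotype apart. Mixl1, a streak homeobox gene, was at 4.49 and 76.0 CPM in DKO and 21.9 and 39.1 CPM in KO EBs. Fgf8, a streak growth factor, was at 1.69 and 58.7 CPM in DKO and 27.9 and 27.6 CPM in KO EBs, and Wnt3, which induces the streak, at 1.11 and 52.0 CPM in DKO and 23.2 and 26.2 CPM in KO EBs. Each of these 4 genes was lower in DKO on day 8 and higher on day 12. Mesp1, of the earliest cardiac and vascular mesoderm, was at 0.623 and 12.5 CPM in DKO and 12.7 and 19.9 CPM in KO EBs, and Evx1, of posterior streak, at 0.845 and 43.3 CPM in DKO and 51.3 and 78.1 CPM in KO EBs. Cdx2, of posterior streak and trophoblast, was at 1.69 and 21.0 CPM in DKO and 41.3 and 52.6 CPM in KO EBs. Of 20 tested streak and early mesoderm genes, 15 were at least 2-fold lower and 2 higher on day 8, and 5 lower and 5 higher on day 12. On both days 4 (20%) were lower and 1 (5%) higher. The higher member was Cdx1, at 25.7 and 12.7 CPM in DKO, 3.38 and 3.15 CPM in KO EBs and 5.49 and 12.3 CPM in WT EBs. It was called (log2 2.52, SE 0.49, adjusted p = 0.014). The summed level of the list did not follow these counts, at 318 and 248 RPKM in DKO, 290.5 and 376 RPKM in KO EBs and 470.3 and 304 RPKM in WT EBs. Tcf15, a factor of primed epiblast and paraxial mesoderm with a large part in the sum, was at 505 and 62.6 CPM in DKO and 141 and 34.1 CPM in KO EBs (called, adjusted p = 0.034). The list's median log2 ratio was -3.06 on day 8 and -0.05 on day 12. Differences between days rest on 1 library per genotype and day and were not tested here or elsewhere below. Foxf1a, of lateral mesoderm downstream of the streak, stayed low on both days, at 0.890 and 4.14 CPM in DKO and 24.1 and 65.4 CPM in KO EBs (called, log2 -4.24, SE 0.62, adjusted p = 0.0057).

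**Figure D3:**
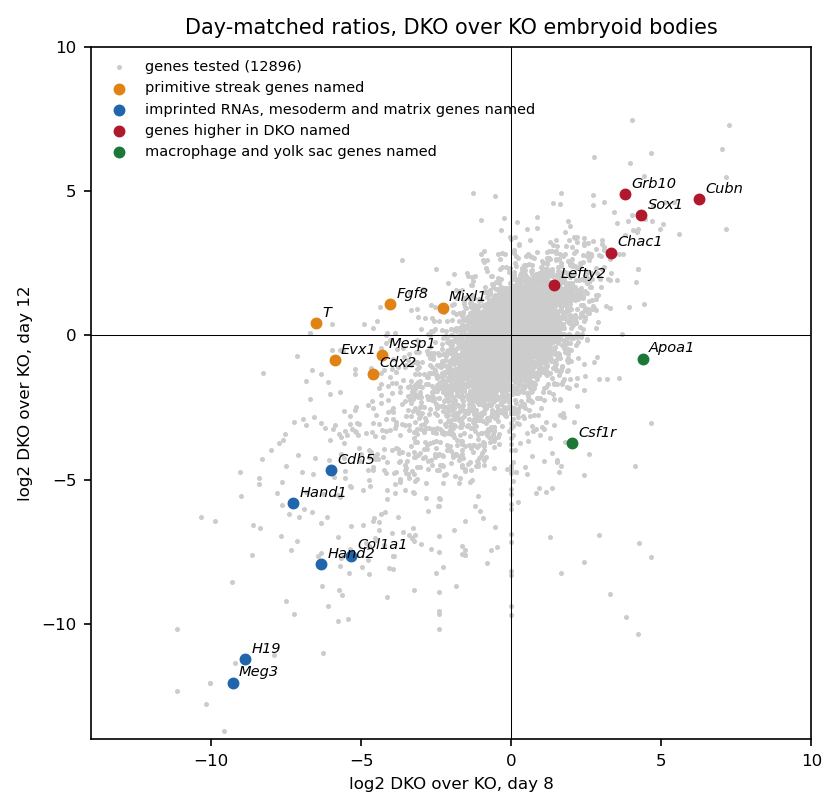
Log2 ratio of DKO over KO EBs at day 8 (x axis) and at day 12 (y axis); each point is 1 of 12896 genes tested. The streak genes labelled in the plot, T, Mixl1, Fgf8, Evx1, Mesp1 and Cdx2, lie left of 0 on day 8. On day 12 they lie between -1.33 (Cdx2) and 1.09 (Fgf8). H19, Meg3, Hand1, Hand2, Col1a1 and Cdh5 lie in the lower left and Sox1, Chac1, Grb10, Cubn and Lefty2 in the upper right.

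Some pluripotency and epiblast genes were higher in DKO than in KO EBs. Sox2, a partner of OCT4, was at 2366 and 1152 CPM in DKO, 1232 and 538 CPM in KO EBs and 219 and 75.2 CPM in WT EBs (called, log2 1.0, SE 0.17, adjusted p = 0.009). Pou5f1 was 1.69-fold and 2.31-fold higher in DKO and was called (adjusted p = 0.0089). For both genes WT was lowest. Of 30 core and naive genes, all tested, 7 (23.3%) were at least 2-fold higher on both days and 1 lower, and 13 were called higher and 1 lower. Tbx3, of naive cells and endoderm, was at 729.8 and 713 CPM in DKO and 131 and 161 CPM in KO EBs. Klf5, a factor of naive cells and epithelia, was at 825 and 687 CPM in DKO and 139.8 and 73.8 CPM in KO EBs. Klf4, also known from differentiating epithelia, was at 379.9 and 331 CPM in DKO and 38.4 and 52.3 CPM in KO EBs, with 56.0 and 642 CPM in WT EBs. Nanog overlapped between the genotypes, at 251 and 249 CPM in DKO, 292 and 216 CPM in KO EBs and 38.9 and 13.4 CPM in WT EBs. The summed level of the list was 4176 and 2645 RPKM in DKO, 2928 and 1448 RPKM in KO EBs and 558 and 556 RPKM in WT EBs. Dppa3, a gene of naive and germ cells, was the lower member, at 0.578 and 0.643 CPM in DKO, 28.2 and 17.4 CPM in KO EBs and 1.08 and 0.322 CPM in WT EBs.

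Of 17 primed epiblast genes, all tested, 5 (29.4%) were at least 2-fold higher on both days and 2 lower, and 8 were called higher and 1 lower. Lefty2, an inhibitor of Nodal signalling, was at 1447 and 451 CPM in DKO, 536 and 134 CPM in KO EBs and 26.4 and 7.92 CPM in WT EBs (called, log2 1.57, SE 0.13, adjusted p = 0.00063). The day 12 DKO library lay below the day 8 KO library, so the genotypes overlapped across days. Otx2, of epiblast and anterior neural tissue, was at 254 and 159 CPM in DKO and 65.1 and 29.3 CPM in KO EBs. Foxd3, of epiblast and neural crest, was at 273 and 122 CPM in DKO and 88.5 and 26.3 CPM in KO EBs. Fgf5, a marker of the primed state, was at 14.3 and 102 CPM in DKO and 28.5 and 14.3 CPM in KO EBs, and its order turned between the days.

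Among neural genes, Sox1, Gbx2 and Olig2 were higher in DKO. Sox1, an early neural plate factor, was at 106 and 107 CPM in DKO, 5.22 and 5.87 CPM in KO EBs and 2.23 and 1.45 CPM in WT EBs, 20.2-fold and 18.2-fold above KO (called, log2 4.23, SE 0.20, adjusted p = 5.8e-05). Gbx2, of hindbrain and naive cells, was at 127 and 28.1 CPM in DKO and 26.3 and 7.41 CPM in KO EBs, and Olig2, of motor neuron progenitors, at 135 and 58.0 CPM in DKO and 39.1 and 16.1 CPM in KO EBs. These genes also had reads in undifferentiated ES cells, where Sox1 was at 484 and 435 CPM in DKO and 18.8 and 21.2 CPM in KO. Gbx2 was at 81.0 and 46.1 CPM in DKO and 70.6 and 78.0 CPM in KO ES cells. Olig2 was lower in DKO there, at 67.8 and 52.8 CPM against 89.7 and 93.5 CPM in KO. Pax6, a defining marker of neural progenitors, was at 1.02 and 0.643 CPM in DKO and 1.84 and 1.14 CPM in KO EBs and was not tested, and 13 of the 25 neural progenitor genes were too low to test. Nes, a progenitor filament gene, was lower in DKO, at 52.9 and 92.8 CPM against 153 and 225 CPM in KO EBs. Of the 12 tested members 4 were at least 2-fold higher and 2 lower on both days. Tubb3, a neuronal tubulin, was at 123 and 90.8 CPM in DKO and 104 and 49.96 CPM in KO EBs.

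Yolk sac endoderm, the absorptive and secretory layer that takes up maternal nutrients, gave the list with the largest share of members higher among those shown in the plot by list. Cubn, the cubilin receptor, was at 70.8 and 514 CPM in DKO, 0.899 and 19.3 CPM in KO EBs and 256 and 174 CPM in WT EBs, 78.8-fold and 26.7-fold above KO. Its partners Amn and Lrp2 were at 15.7 and 128 CPM and 126 and 409.8 CPM in DKO EBs, against 2.31 and 1.76 CPM and 40.9 and 17.5 CPM in KO EBs, and the endocytic adaptor Dab2 was at 56.1 and 667 CPM in DKO and 4.67 and 93.6 CPM in KO EBs. All 4 genes of this uptake system were called higher. Of 23 tested members, 12 (52.2%) were at least 2-fold higher on both days and 1 (Rbp4, a retinol carrier) lower. Secreted products did not all follow. Apoa4, an apolipoprotein, was higher, at 9.30 and 69.7 CPM in DKO and 0.171 and 6.05 CPM in KO EBs. Apoc2, also an apolipoprotein, was higher on each day, at 1.96 and 123 CPM in DKO and 0.0856 and 9.54 CPM in KO EBs. It was not called, its genotypes overlapped across days, and its day 8 KO value rests on 2 reads. Afp, alpha-fetoprotein, was at 0.667 and 52.5 CPM in DKO, 1.24 and 94.4 CPM in KO EBs and 15.4 and 82.9 CPM in WT EBs, and Apoa1 at 29.1 and 159 CPM in DKO and 1.37 and 279 CPM in KO EBs, so its order turned between the days. Summed over 29 members, levels were 1104 and 3840.3 RPKM in DKO, 756 and 1486 RPKM in KO EBs and 1930.3 and 3296 RPKM in WT EBs. KO EBs had the lowest sum on both days, and DKO lay between KO and WT on day 8 and above both on day 12. The regulators were less uniform: Gata4 was at 73.1 and 705 CPM in DKO and 65.8 and 216 CPM in KO EBs, Gata6 at 23.1 and 132 CPM in DKO and 65.8 and 321 CPM in KO EBs, and Sox17 at 17.3 and 517 CPM in DKO and 32.8 and 84.9 CPM in KO EBs.

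Stress response genes under the transcription factor ATF4, which raises amino acid synthesis and uptake when translation is curbed, were higher in DKO EBs. Chac1, a glutathione-degrading enzyme, was at 183 and 154 CPM in DKO, 18.1 and 21.1 CPM in KO EBs and 7.99 and 10.4 CPM in WT EBs (called, log2 3.08, SE 0.20, adjusted p = 0.00029). Trib3, a pseudokinase that feeds back on ATF4, was at 149 and 199 CPM in DKO, 32.6 and 39.2 CPM in KO EBs and 42.6 and 76.9 CPM in WT EBs. Nupr1, a stress-induced chromatin protein, was at 31.3 and 26.5 CPM in DKO, 7.62 and 4.81 CPM in KO EBs and 5.49 and 7.72 CPM in WT EBs. For all 3, both DKO libraries lay above both KO and both WT libraries. Of 28 tested members, 11 (39.3%) were at least 2-fold higher on both days and none lower, and 21 were called higher and 1 lower. Their summed level was 1909 and 2026 RPKM in DKO, 1204 and 1032 RPKM in KO EBs and 833 and 1373 RPKM in WT EBs. The transporter gene Slc7a5, which imports large amino acids, was at 1710.3 and 1566 CPM in DKO and 627 and 426 CPM in KO EBs. Cth, for cysteine synthesis, was at 35.8 and 40.8 CPM in DKO and 8.86 and 4.84 CPM in KO EBs, and Mthfd2, of mitochondrial folate metabolism, at 170.4 and 148 CPM in DKO and 73.9 and 60.5 CPM in KO EBs. Atf4 itself was 1.97-fold and 1.93-fold higher. Both Ddit3 and Xbp1, of the unfolded protein response, ran apart from the list: Ddit3, which encodes CHOP, was at 33.8 and 47.5 CPM in DKO and 40.7 and 31.7 CPM in KO EBs, and Xbp1 was the member called lower, at 34.4 and 84.7 CPM in DKO and 108 and 113 CPM in KO EBs.

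ATF4 binds DNA with C/EBP partners at a composite element, written TGATGNAAN. The promoters of Chac1, Trib3 and Nupr1 are shown because these genes moved together and each holds this element. They run from 250 bases before to 50 after the RefSeq start on GRCm38.p6, 5′ to 3′ on the strand of the gene, and the element is in capitals, here on the opposite strand in each.
Chac1 (chr2:119350992-119351291, plus strand): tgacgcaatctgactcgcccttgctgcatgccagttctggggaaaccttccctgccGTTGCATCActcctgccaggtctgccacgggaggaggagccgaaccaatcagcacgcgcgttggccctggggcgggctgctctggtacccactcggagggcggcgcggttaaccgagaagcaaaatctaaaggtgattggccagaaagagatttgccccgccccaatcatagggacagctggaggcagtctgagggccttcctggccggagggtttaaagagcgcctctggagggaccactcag
Trib3 (chr2:152344011-152344310, minus strand): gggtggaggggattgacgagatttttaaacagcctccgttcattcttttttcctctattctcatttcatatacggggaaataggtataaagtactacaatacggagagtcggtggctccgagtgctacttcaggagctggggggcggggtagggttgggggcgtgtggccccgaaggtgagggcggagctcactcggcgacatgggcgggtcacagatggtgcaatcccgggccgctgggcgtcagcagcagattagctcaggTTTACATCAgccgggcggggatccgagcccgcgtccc
Nupr1 (chr7:126625421-126625720, minus strand): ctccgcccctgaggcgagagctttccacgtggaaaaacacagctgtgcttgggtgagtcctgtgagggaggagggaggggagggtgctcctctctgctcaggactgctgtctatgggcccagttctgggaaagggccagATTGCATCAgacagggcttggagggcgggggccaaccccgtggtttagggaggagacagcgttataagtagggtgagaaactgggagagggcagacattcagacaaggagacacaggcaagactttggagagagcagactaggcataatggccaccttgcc
On either strand the element lay in a promoter of 9 of the 26 list members with a RefSeq promoter (34.6%), and of 1215 of all 27025 genes with one (4.5%). Many of these genes were listed because they are known ATF4 targets, so that share is a description and a match is not shown binding.

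Imprinted genes, expressed from 1 parental copy, were for a large part lower in DKO EBs. H19, a maternally expressed growth-restraining RNA, was at 5.21 and 3.26 CPM in DKO, 2432 and 7897 CPM in KO EBs and 638 and 775 CPM in WT EBs. DKO lay 467-fold below KO on day 8 and 2426-fold below it on day 12, and KO lay above WT on both days (called, log2 -10.11, SE 0.69, adjusted p = 0.00029). The H19 transcript carries the precursor of miR-675, whose row shares H19's reads and is no separate measurement. Its mature forms from RefSeq (GRCm38.p6, chromosome 7) are shown with the seed, bases 2 to 8, in capitals, as the small RNAs that go with this transcript. They were not measured here.
mmu-miR-675-5p: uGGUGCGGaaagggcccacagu
mmu-miR-675-3p: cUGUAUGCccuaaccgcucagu
Igf2, the growth factor gene that shares H19's control region and is read from the other parental copy, was at 28.3 and 800.0 CPM in DKO, 311 and 1441 CPM in KO EBs and 14229.9 and 16271 CPM in WT EBs, so KO was already well below WT and DKO lower still. In the Dlk1-Dio3 region, the maternal RNAs Meg3 and Rian were at 0.534 and 0.362 CPM and 0.267 and 0.161 CPM in DKO EBs. Meg3 was at 345 and 1612 CPM in KO EBs and 474 and 376 CPM in WT EBs (called, log2 -10.93, SE 0.82, adjusted p = 0.00045), and Rian at 170.0 and 479 CPM in KO EBs and 121 and 45.1 CPM in WT EBs. Dlk1, the paternally read gene of the region, was at 3.25 and 31.0 CPM in DKO, 10.6 and 279 CPM in KO EBs and 2471 and 2302 CPM in WT EBs.

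Other imprinted regions followed, though not all. Of 43 tested imprinted genes, 21 (48.8%) were at least 2-fold lower on both days and 4 (9.3%) higher, and 21 were called lower and 4 higher. Their summed level was 380.3 and 687 RPKM in DKO, 1292 and 3819 RPKM in KO EBs and 4785 and 4277 RPKM in WT EBs. Peg3, a paternally expressed zinc finger gene, was at 52.6 and 513 CPM in DKO, 804 and 3269.5 CPM in KO EBs and 2660.5 and 880.0 CPM in WT EBs, and Mest at 71.7 and 73.2 CPM in DKO, 371 and 952 CPM in KO EBs and 1136 and 350.4 CPM in WT EBs. Plagl1, a zinc finger regulator of other imprinted genes, was at 4.05 and 16.6 CPM in DKO, 28.9 and 823 CPM in KO EBs and 1135 and 558 CPM in WT EBs. Many of these genes are highest in mesoderm and mesenchyme, whose markers were low in the same DKO libraries, and the part of cell makeup in these ratios was not tested. In undifferentiated ES cells Meg3 was at 1.39 and 1.10 CPM in DKO and 193 and 162 CPM in KO. Rian was at 0.0896 and 0.326 CPM in DKO and 125 and 115 CPM in KO ES cells. The median log2 fold change of the 43 tested genes was -0.78 in ES cells and -2.04 in EBs. The 4 higher genes were Grb10, Cobl, Cdkn1c and Phlda2. Grb10, a growth inhibitor, was at 414 and 496 CPM in DKO, 29.5 and 16.7 CPM in KO EBs and 724 and 447 CPM in WT EBs, so that KO was the genotype apart (called, log2 4.35, SE 0.29, adjusted p = 0.00029). Cobl, its neighbour on chromosome 11 and an actin nucleator, was at 421 and 171 CPM in DKO, 49.1 and 20.6 CPM in KO EBs and 17.0 and 8.56 CPM in WT EBs, so here DKO was the one apart. Cdkn1c, a cell cycle inhibitor, was at 147 and 93.1 CPM in DKO, 20.8 and 38.7 CPM in KO EBs and 670.3 and 1098 CPM in WT EBs, and Phlda2, its neighbour on chromosome 7, at 85.8 and 38.7 CPM in DKO, 20.2 and 12.2 CPM in KO EBs and 152 and 118 CPM in WT EBs.

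**Figure D4:**
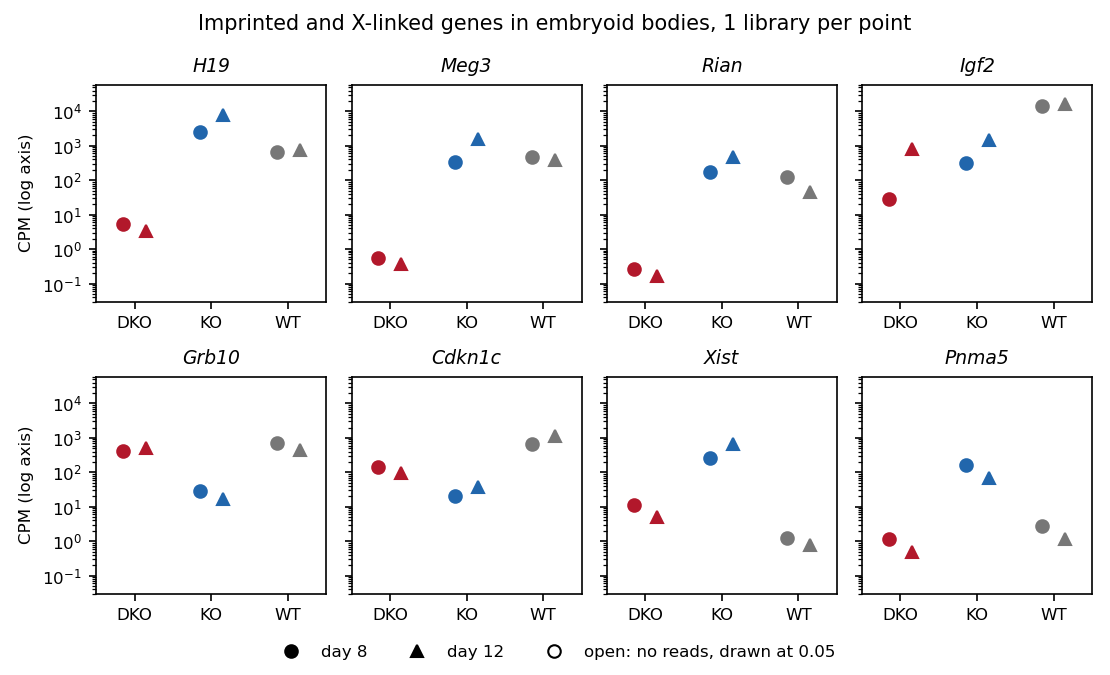
CPM on a log axis of 6 imprinted genes, Xist and Pnma5 in each EB library of DKO, KO and WT, with circles for day 8 and triangles for day 12; 1 point is 1 library. H19, Meg3 and Rian lie lowest in DKO, Grb10 and Cdkn1c lowest in KO, and Xist and Pnma5 highest in KO.

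X-linked genes were lower in DKO than in KO EBs as a group. The median log2 ratio of 460 tested X-linked genes was -0.81 on day 8 and -0.47 on day 12; 92 (20%) were at least 2-fold lower on both days and 4 higher. Against WT EBs, the X median was -0.26 and 0 in DKO and 0.54 and 0.49 in KO EBs. Xist, the RNA that silences 1 X chromosome of female cells, was at 11.1 and 4.94 CPM in DKO, 261 and 647 CPM in KO EBs and 1.23 and 0.764 CPM in WT EBs, and was called (log2 -5.87, SE 0.63, adjusted p = 0.0021). Tsix, transcribed through it from the other strand, was at 12.5 and 5.95 CPM in DKO and 45.3 and 103 CPM in KO EBs. No source used here says whether strand was used in counting, so reads of the pair cannot be told apart. The Y-linked gene Ddx3y had no reads in DKO EBs and was at 0 and 0.0367 CPM in KO EBs and 37.3 and 36.6 CPM in WT EBs. The WT line therefore held a Y chromosome's transcripts and both mutant lines next to none. Sex chromosome makeup and genotype thus cannot be told apart in any comparison with WT, and the sex of the lines is not stated. DKO and KO also differed in Xist and in X-linked levels, and whether their sex chromosome makeup differs was not tested. Rhox6 and Rhox9, X-linked homeobox genes of placenta and germ line, were at 0.4 and 1.29 CPM and 0.756 and 1.04 CPM in DKO EBs, against 52.7 and 34.9 CPM and 89.6 and 46.4 CPM in KO EBs.

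Genes of 3 autosomes were also shifted on both days. Chromosome 1 had a median log2 ratio of 0.55 and 0.59, chromosome 14 of 0.59 and 0.61, and chromosome 11 of -0.48 and -0.53; the median over all genes tested was -0.01 and -0.02. Chromosome 6 had a smaller shift of -0.26 and -0.22, and the other autosomes stayed within 0.11 of 0. Against WT EBs, genes of chromosome 1 had medians of 0.11 and 0.08 in DKO and -0.49 and -0.45 in KO EBs. Those of chromosome 14 had 0.21 and 0.20 in DKO and -0.41 and -0.33 in KO EBs, and those of chromosome 11 -0.20 and -0.14 in DKO and 0.21 and 0.37 in KO EBs. Most of the shift of chromosomes 1 and 14 thus lay on the KO side. In the ES cells of the same lines the median log2 fold change of DKO over KO was 0.67, 0.59, -0.52 and -0.79 for chromosomes 1, 14, 11 and X. Ratios of genes on these chromosomes, such as Inhbb or Lefty2 (1), Otx2 (14), Hand1 or Col1a1 (11) and Pnma5 (X), stand on shifted chromosomes. Chromosome copy number of the lines is unknown here, and its part in these ratios was not tested. Of 10184 tested genes elsewhere, a split chosen after seeing the data, 2.8% were at least 2-fold higher and 6.51% lower on both days.

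**Figure D5:**
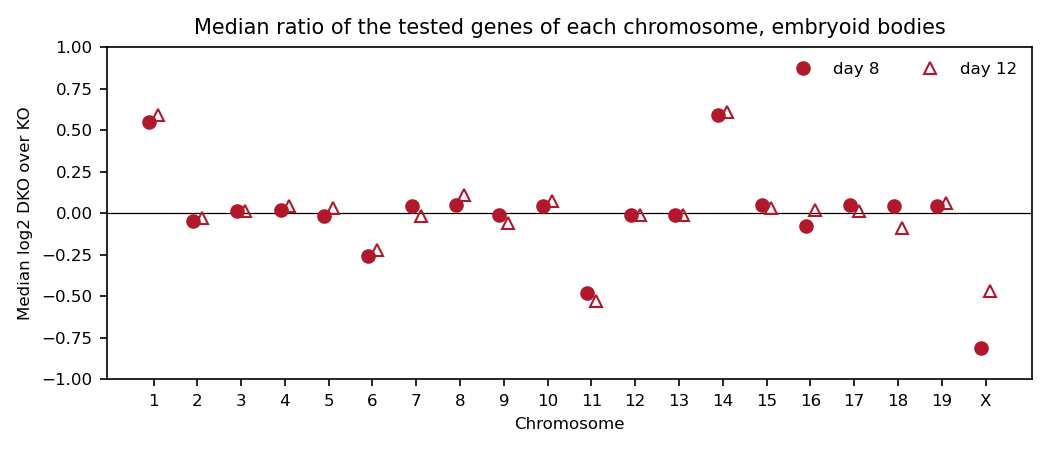
Median log2 ratio of DKO over KO EBs over the tested genes of each chromosome, at day 8 (filled circles) and day 12 (open triangles). Chromosomes 1 and 14 lie above 0 and chromosomes 11 and X below 0 on both days.

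Several other genes had large ratios on both days without belonging to the lists above. Srgn, the proteoglycan of secretory granules, was at 21.1 and 118 CPM in DKO, 0.128 and 2.60 CPM in KO EBs and 3.92 and 102 CPM in WT EBs. Aqp8, a water channel, was at 8.86 and 102 CPM in DKO and 0.556 and 1.61 CPM in KO EBs, and Muc13, a membrane mucin, at 5.21 and 50.2 CPM in DKO and 0.471 and 2.57 CPM in KO EBs. WT EBs held 19.7 and 54.5 CPM of Aqp8 and 15.2 and 45.4 CPM of Muc13, so KO was the low genotype for these. Inhbb, the inhibin beta B subunit, was at 213 and 61.2 CPM in DKO, 6.42 and 4.18 CPM in KO EBs and 3.84 and 10.3 CPM in WT EBs, and Pou4f2, a transcription factor of retinal ganglion cells, at 123 and 25.6 CPM in DKO, 4.71 and 1.61 CPM in KO EBs and 0.653 and 0.563 CPM in WT EBs, so DKO was the high genotype for both. Capn6, an X-linked calpain-like gene of placenta and mesenchyme, was at 0.311 and 1.81 CPM in DKO, 56.0 and 133 CPM in KO EBs and 240.3 and 42.7 CPM in WT EBs. All of these 6 genes were called.

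Hox genes, which set position along the body axis, were mostly lower in DKO EBs, at low levels. Of 29 tested Hox genes, 17 (58.6%) were at least 2-fold lower on both days and 4 (13.8%) higher, and 11 were called lower and 2 higher. Hoxa9 was at 0.712 and 0.482 CPM in DKO, 5.35 and 9.28 CPM in KO EBs and 25.6 and 22.7 CPM in WT EBs, and Hoxb2 at 2.58 and 2.37 CPM in DKO and 17.2 and 22.2 CPM in KO EBs. Hoxb9 ran the other way within the same cluster as Hoxb2, at 6.63 and 17.3 CPM in DKO and 2.35 and 1.72 CPM in KO EBs. Summed over 39 Hox genes, levels were 15.3 and 28.4 RPKM in DKO, 36.6 and 69.0 RPKM in KO EBs and 169 and 95.0 RPKM in WT EBs.

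Several genes of early embryos and germ cells were high in KO EBs and low in DKO and WT EBs. Of 15 tested germline genes, 6 (40%) were at least 2-fold lower on both days and 1 higher. Tuba3a, a testis tubulin, was at 3.87 and 0.563 CPM in DKO, 57.1 and 25.8 CPM in KO EBs and 3.50 and 1 CPM in WT EBs, and Smc1b, a meiotic cohesin, at 1.96 and 0.563 CPM in DKO, 23.1 and 13.1 CPM in KO EBs and 1.23 and 1.25 CPM in WT EBs. Tdrd12, of the piRNA pathway that silences transposons, was at 1.25 and 0.0402 CPM in DKO, 34.5 and 13.4 CPM in KO EBs and 2.15 and 0.402 CPM in WT EBs. The higher member was Ddx4, the germ cell helicase also called Vasa, at 17.8 and 15.2 CPM in DKO and 7.70 and 4.07 CPM in KO EBs. Of 29 genes listed for the two-cell embryo state, 7 could be tested, of which 6 were lower on both days, beside 7.16% of all genes. Zim1 was among these 6 but was high in WT rather than KO. It was at 0 and 0.201 CPM in DKO, 0.813 and 1.50 CPM in KO EBs and 64.6 and 65.2 CPM in WT EBs. It thus passed the filter only through WT. The summed level of the list was 36.8 and 41.3 RPKM in DKO, 81.6 and 71.6 RPKM in KO EBs and 38.6 and 42.3 RPKM in WT EBs. Gm4340 was at 0.4 and 1.57 CPM in DKO, 21.2 and 27.2 CPM in KO EBs and 0.960 and 0.402 CPM in WT EBs, and like other members it has near-identical copies.

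Of 14 tested trophoblast genes, 8 (57.1%) were at least 2-fold lower on both days and 1 higher, but the defining markers Elf5 and Tpbpa stayed at or under 0.147 CPM in DKO and KO EBs. Keratins of simple epithelia were lower: Krt19 was at 24.0 and 47.7 CPM in DKO and 126 and 376 CPM in KO EBs (called, log2 -2.72, SE 0.19, adjusted p = 0.00032), and Krt18 at 30.4 and 143 CPM in DKO and 92.1 and 240.4 CPM in KO EBs. Epcam and Cdh1, general epithelial markers, were at 268 and 135 CPM and 510.4 and 469.8 CPM in DKO EBs, against 243 and 141 CPM and 589 and 415 CPM in KO EBs, and overlapped between the genotypes.

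The replication, mitosis, heterochromatin and genome architecture lists had few members past 2-fold on both days. None of 36 tested replication genes and none of 24 mitosis genes was at least 2-fold higher or lower on both days, with list medians of -0.07 and -0.06 on the log2 scale. Among 32 tested heterochromatin and silencing factors, 2 (6.2%) were higher and none lower, beside 3.39% and 7.16% of all genes. Among 31 genome architecture genes none passed in either direction. Cholesterol synthesis genes had a median of -0.61 over 23 tested genes. Of these, 12 were called lower and none higher, beside 9.15% of all genes called lower. On both days 2 (8.7%) were at least 2-fold lower, near the 7.16% of all genes. Nsdhl, an X-linked enzyme of the pathway, was at 8.54 and 7.60 CPM in DKO and 34.5 and 25.8 CPM in KO EBs. Of 27 tested interferon response genes, 9 (33.3%) were lower on both days and 2 (7.4%) higher, beside 7.16% and 3.39% of all genes. Isg15, a ubiquitin-like antiviral protein, was at 0.133 and 0.121 CPM in DKO, 3.72 and 3.30 CPM in KO EBs and 3.61 and 8.92 CPM in WT EBs.

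The EB difference was set beside that of the ES cells of the same lines, through an interaction term over all 12 libraries. The difference between DKO and KO itself differed between EBs and ES cells in 1958 of 13429 genes (14.6%, edgeR adjusted p under 0.05), more positive in EBs in 1023 and more negative in 935. The count was 499 and 308 without the first or second KO ES library, 1065 and 576 without the first or second DKO ES library, and 1293 without the day 12 KO EB library. Hand1 and Nanog, named next, no longer passed without the second KO ES library (adjusted p = 0.0537 and 0.0528). Xist was at 18.4 and 19.8 CPM in DKO and 40.3 and 21.3 CPM in KO ES cells, so the genotypes lay closer than in EBs (interaction -5.18, adjusted p = 0.0073). Hand1, at 3.99 and 3.79 CPM in DKO and 5.75 and 6.44 CPM in KO ES cells, was likewise apart in EBs (interaction -5.66, adjusted p = 0.0083). H19 was lower in DKO in both states, and more so in EBs (interaction -5.34, adjusted p = 0.0062). Lefty2 turned direction: in ES cells it was at 265 and 268 CPM in DKO and 846 and 927 CPM in KO, the reverse of EBs (interaction 3.30, adjusted p = 0.00039). Nanog was lower in DKO ES cells, at 206 and 181 CPM against 1131 and 1087 CPM in KO, and overlapped in EBs (interaction 2.52, adjusted p = 0.011). For Sox1, Chac1, Trib3, Tbx3 and Pnma5 the interaction did not pass, which does not show equal differences, with values of -0.30, 0.64, 0.29, -0.32 and 0.59 on the log2 scale, and each was on the same side in ES cells and EBs. Across 12896 genes the EB and ES log2 fold changes had a Pearson correlation of 0.39; the 2 come from different libraries of the same lines. Of the 437 genes at least 2-fold higher on both days in EBs, 211 were also at least 2-fold higher in DKO ES cells with an adjusted p under 0.05 and 20 lower, and of the 923 lower genes 310 were also lower and 45 higher. Over all 12896 genes, 12.5% were higher and 13.0% lower by this ES criterion.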

How the data were processed

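Polyadenylated RNA of 12 mouse cell libraries (2 each of DKO, KO and WT EBs and of DKO, KO and WT ES cells) was sequenced. The submitters' processing notes name Bowtie2, with no version, and mm9; the counter, its use of strand and its treatment of reads with several matches are not given in the sources used here. For each transcript model the deposited tables hold a read count and an RPKM value. The authors' RPKM divides by a library total larger than the reads in genes. Read totals in genes, with 1 row per symbol, were between 22538336 and 26675600 per library, so counting error is small beside library spread except for genes with few reads.

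The longest model per symbol was kept. Counts were tested with edgeR 4.0.16 (TMM, quasi-likelihood, Benjamini-Hochberg adjusted p under 0.05) in the 6 EB libraries with terms for genotype and day, over genes that reached 1 RPKM in 2 or more libraries. Days pair the libraries, per the labels; deviations of day-matched libraries correlated at -0.05 (WT and KO), 0.19 (WT and DKO) and 0.47 (KO and DKO). The interaction of genotype with state was fitted over 12 libraries. Day-matched ratios used a prior count of 0.5. Alternatives used DESeq2 1.42.0 and limma 3.58.1. Scripts were tested on simulated data. Chromosomes and sequences came from RefSeq tables for GRCm38.p6 by symbol; no coordinates were converted.

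The members and the gene lists were chosen with earlier results of these data known. Genes were named by rule (the targeted and other H4K20 genes, the 15 largest changes per direction, filled up with the largest day-matched ratios of genes with at least 5 RPKM, and up to 4 per list by smallest p), as far as they are shown; other list members and defining markers were named after their values were seen.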

Additional observations from a re-analysis of the deposited data

Results flagged for a closer look

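The difference between DKO and KO in EBs was not the same as that in ES cells, by the interaction term, in 1958 genes. Among the genes named above, the EB difference minus the ES difference was -5.18 for Xist, -5.66 for Hand1, -5.34 for H19, 3.30 for Lefty2 and 2.52 for Nanog on the log2 scale.

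Other genes had ratios of opposite sign at day 8 and day 12, a difference that was not tested. The log2 ratio of DKO over KO was -6.51 on day 8 and 0.41 on day 12 for T, -2.28 and 0.96 for Mixl1, -4.03 and 1.09 for Fgf8, and -4.36 and 0.99 for Wnt3, all of the primitive streak. It was -0.99 and 2.82 for Fgf5 of the primed epiblast and -0.93 and 2.61 for Sox17 of the endoderm. For Apoa1 it was 4.39 and -0.81, for Csf1r 2.02 and -3.74, and for Suv420h2 0.51 and -0.68.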

How the results depend on the processing

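The number of genes with an adjusted p under 0.05 between DKO and KO EBs, 1 in the edgeR test, was 1176 with DESeq2 (452 higher, 724 lower), 9 with limma on log2(RPKM + 0.5) and 9 with a pseudocount of 1, 276 with the DKO and KO EB libraries alone and 2227 with all 12 libraries. Without the day as replicate block it was 0, with 1838 genes at an unadjusted p under 0.05, and Pnma5 then had a log2 fold change of -7.16 (adjusted p = 0.178). It was 1 with DESeq2 size factors, with either other filter on low values and with the transcript model of most reads. Leaving out 1 EB library gave between 0 and 251 genes, and leaving out either DKO library gave Pnma5 an adjusted p of 0.691 or 0.644. The interaction count of 1958 ran from 308 to 2744 when 1 library was left out, and was 1042 with the ES replicate number as replicate block, a number that does not pair the libraries (correlations of deviations between -0.08 and -0.01), and 3178 with DESeq2. As differences of log2(RPKM + 1), list medians were smaller in size, except for replication, mitosis and cholesterol genes; those that moved beyond their spread between days were -0.95 for cardiac muscle, -1.42 for collagens, -1.25 for smooth muscle, -1.20 for endothelium, -1.27 for erythroid genes, -1.07 for imprinted genes, -0.74 for Hox genes, 1.07 for yolk sac genes and -0.14 for replication genes; the added pseudocount shrinks ratios of low genes.

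No gene that passed the EB test turned direction. Among genes that did not pass, the log2 fold change was of the other sign without the replicate block for Mixl1 (0.40), Fgf8 (0.12), Wnt3 (0.11), Apoa1 (-0.57) and Nanog (-0.02). Nanog was also at -0.08 with limma at both pseudocounts, -0.04 with the stricter filter, -0.03 with DKO and KO alone, -0.00 with all 12 libraries and -0.01 with the model of most reads, and Epcam was at -0.04 with limma at both pseudocounts. With 1 EB library left out, the log2 fold change spanned 0 for 15 genes: from -0.55 to 0.32 for Suv420h2, -0.01 to 0.60 for Setd8, -3.25 to 0.38 for Csf1r, -2.49 to 1.09 for Mixl1, -3.73 to 0.66 for Fgf8, -4.70 to 1.25 for Wnt3, -0.53 to 0.46 for Nanog, -0.60 to 2.45 for Fgf5, -0.13 to 1.24 for Tubb3, -2.26 to 0.53 for Afp, -1.19 to 4.81 for Apoa1, -0.65 to 2.23 for Sox17, -0.62 to 0.93 for Ddit3, -0.66 to 0.59 for Epcam and -0.63 to 0.66 for Cdh1. Such a fit leaves 1 DKO or KO library, which is assumed to vary like the other groups. The cause of these shifts was not tested. The DKO and KO contrast rests on 1 library per genotype and day, so culture and line cannot be told apart from the loss of SUV420H1. Within a genotype, a difference between days cannot be told apart from one between libraries. Levels under about 1 CPM rest on few reads.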

Other observations

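Regulators and products of endoderm beyond the yolk sac list were mixed. Of 16 tested endoderm transcription factors, 2 (12.5%) were at least 2-fold higher and 2 (12.5%) lower in DKO EBs on both days. Over all genes tested, 3.39% were higher and 7.16% lower. Hnf4a, of visceral endoderm and liver, was at 15.4 and 154 CPM in DKO, 6.63 and 48.4 CPM in KO EBs and 71.1 and 135 CPM in WT EBs. Foxa1, a pioneer factor of endoderm, was at 6.45 and 19.3 CPM in DKO, 11.5 and 67.5 CPM in KO EBs and 6.68 and 11.8 CPM in WT EBs. Of 12 tested genes of parietal endoderm and basement membrane, 3 (25%) were higher and 1 (8.3%) lower on both days. Lama1, a laminin chain of that membrane, was at 30.1 and 431 CPM in DKO, 6.63 and 46.0 CPM in KO EBs and 125 and 1596 CPM in WT EBs.

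Growth factor genes were lower more often than higher. Of 17 tested IGF and growth factor genes, 6 (35.3%) were at least 2-fold lower in DKO on both days and none higher, beside 7.16% of all genes lower. Igfbp5, a binding protein of IGFs, was at 4.72 and 149 CPM in DKO, 100.9 and 524 CPM in KO EBs and 1819 and 955 CPM in WT EBs, and Igf1 at 3.29 and 1.49 CPM in DKO, 10.2 and 23.8 CPM in KO EBs and 43.3 and 8.56 CPM in WT EBs. Of 23 tested BMP and TGF-beta genes, 7 (30.4%) were lower and 2 higher. Summed levels did not all follow these counts. The BMP and TGF-beta list was at 795 and 595 RPKM in DKO and 498.5 and 502 RPKM in KO EBs. The IGF and growth factor list was at 1361 and 937 RPKM in DKO and 953 and 1124 RPKM in KO EBs. Nodal, the ligand that patterns epiblast and streak, was at 167 and 165 CPM in DKO, 125 and 44.4 CPM in KO EBs and 13.5 and 8.80 CPM in WT EBs, above KO by 1.34-fold and 3.71-fold. Of 33 tested p53 targets, 2 (6.1%) were higher and 1 (3%) lower on both days, beside 3.39% and 7.16% of all genes. Of 28 glycolysis and hypoxia genes, 13 were at least 2-fold lower on day 12 (14% of all genes were) and 2 on day 8 (11.8% of all genes).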
